A study of Mus musculus with 23 samples.

Results

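The genes described here are the classical and accessory genes of MHC class II antigen presentation and their transactivator, namely Ciita, Cd74, H2-Aa, H2-Ab1, H2-Eb1, H2-DMa, H2-DMb1, H2-DMb2, H2-Oa and H2-Ob. They were chosen by name, with earlier results of these data known, and all 10 were found among the 26869 genes of the expression table. Bulk RNA sequencing was performed on 23 tumors of MC38, a colon carcinoma line of C57BL/6 origin, grown under the skin of female F1 mice that each had a C57BL/6J parent and a parent of 1 of 6 Collaborative Cross (CC) lines. The CC lines are recombinant inbred mice bred from 8 founder strains, so hosts of different lines can carry different MHC haplotypes beside the one from C57BL/6J. Mice of 8 to 12 weeks received 500000 tumor cells, and tumors of 75 to 110 mm3 were treated with a single 200 µg dose of an antibody against PD-1 (aPD1, clone 29F.1A12) or of an isotype control antibody (clone 2A3), and were collected 48 h later. CC001F1, CC002F1 and CC075F1 hosts were responders (R) and CC036F1, CC079F1 and CC080F1 hosts were non-responders (NR), a class given by the study's text and not by the sample labels. There were 6 R and 6 NR tumors with isotype, 6 R tumors with aPD1 and 5 NR tumors with aPD1. Each line had 2 tumors per antibody, except CC080F1 with aPD1, which had 1.

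MHC class II molecules present peptides from endosomes to CD4+ T cells. Their genes are switched on together by Ciita, which does not bind DNA itself but is recruited by RFX, CREB and NF-Y proteins seated on the X and Y boxes of each promoter. Dendritic cells and B cells make class II constitutively, whereas macrophages and many other cells do so after exposure to interferon-gamma. Cd74, the invariant chain, occupies the groove of new class II dimers, H2-DM exchanges its remnant for antigenic peptide, and H2-O restrains H2-DM, mainly in B cells.

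On GRCm38, 8 of the 10 genes lie in the class II region of chromosome 17, from H2-Oa (chr17:34092340-34095234, + strand) to H2-Eb1 (chr17:34305867-34316674, + strand), with H2-Aa on the - strand (chr17:34282744-34287823). Ciita (chromosome 16, start 10480059, end 10528418) and Cd74 lie outside it. Promoter sequences of 300 bases, reaching 250 bases before the start of transcription, were available from RefSeq (GRCm38.p6) for 7 members, namely H2-Oa, H2-DMa, H2-DMb2, H2-DMb1, H2-Ob, H2-Aa and H2-Eb1. The windows printed here, each 60 bases and upstream of the start of the RefSeq transcript, hold the Y box of the element that Ciita works through. Capitals mark the Y box, CCAAT or ATTGG on the other strand, and, where it was found, the core of the X1 box, searched as GNNACNNATG on both strands.

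H2-Eb1: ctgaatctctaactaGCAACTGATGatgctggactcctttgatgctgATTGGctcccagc
H2-DMb1: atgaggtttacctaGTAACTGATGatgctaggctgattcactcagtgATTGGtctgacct
H2-DMb2: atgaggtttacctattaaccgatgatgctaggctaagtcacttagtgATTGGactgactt
H2-Ob: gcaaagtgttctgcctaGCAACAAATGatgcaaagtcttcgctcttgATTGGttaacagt
H2-Aa: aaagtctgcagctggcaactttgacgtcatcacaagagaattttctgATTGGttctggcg

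These windows are chr17:34305761-34305820 (+) for H2-Eb1, chr17:34153083-34153142 (+) for H2-DMb1, chr17:34145112-34145171 (+) for H2-DMb2, chr17:34238801-34238860 (+) for H2-Ob and chr17:34287859-34287918 (-) for H2-Aa. A Y box was present in a promoter of all 7 members, against 37.4% of the 32851 promoters searched. The X1 core was present in 4 members, against 8.97% of promoters. The X1 core followed by a Y box on the same strand, 15 to 30 bases apart, was present in 3 members (H2-Eb1, H2-DMb1 and H2-Ob, with 22, 23 and 20 bases between), against 0.155% of promoters. In these 3 promoters the Y box lay 59, 61 and 57 bases before the start, and in H2-DMb2, whose window lacks the letters searched for X1, it lay 90 bases before it. The transcripts of H2-DMb1 and H2-DMb2 were 94.4% identical over 1255 aligned bases, and 22.7% of the 50-base stretches of H2-DMb1 were shared with H2-DMb2, so the division of reads between these neighbors is less certain than the errors given below.

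Values are normalized counts, that is, deposited expected counts per gene rounded and divided by the DESeq2 size factor of the library. Library totals ran from 14494014.5 to 71868253.4 counts, and 6 of the 23 libraries were shallow (at most 18354585.0 counts, 2 R and 4 NR), the other 17 holding at least 37242362.6. Per kilobase of exon, Cd74 had the highest level, with a mean of 14070 ± 9776 (SD, n = 23 tumors). H2-Eb1, H2-Ab1 and H2-Aa followed at 4565 ± 3676, 3585 ± 2611 and 3129 ± 2072 per kilobase, and their SDs overlapped widely. H2-DMb1 was at 1191 ± 460.2 and H2-DMa at 401.0 ± 185.3 per kilobase, and H2-DMb2 was lower at 82.14 ± 34.79. Ciita was at 68.91 ± 49.32 per kilobase, and H2-Oa (18.22 ± 16.41) and H2-Ob (17.82 ± 16.44) were lowest and did not differ beyond their spread. At this depth the rarest members rested on few reads, with 4 to 121 counts per library for H2-Oa and 6 to 424 for H2-Ob.

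In responder tumors Ciita, the invariant chain, all 3 classical chains, H2-DMa and H2-DMb1 were higher than in non-responder tumors, by 1.81-fold (H2-DMb1) to 4.31-fold (H2-Eb1) over both antibodies. The 3 remaining members, H2-DMb2, H2-Oa and H2-Ob, did not pass the test. The comparison addressed how the immune environment of R and NR hosts differed. In a DESeq2 fit of all 23 tumors that included antibody, 7 of 10 members were higher in R at an adjusted p under 0.05 and none was lower, against 7.66% of all 17643 genes tested higher and 6.78% lower. The median log2 difference of the 10 members was 1.23, against -0.000425 for all genes. The fit treated tumors of a line as independent, although line is nested in class. When limma treated line as a random effect, 7 members were also called. Its correlation between tumors of a line, a single value for all genes, was 0.015. That fit thus also took tumors of a line as nearly independent and does not settle the nesting. A permutation of the 6 lines alone could not give an exact p below 0.1.

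**Figure D1:**
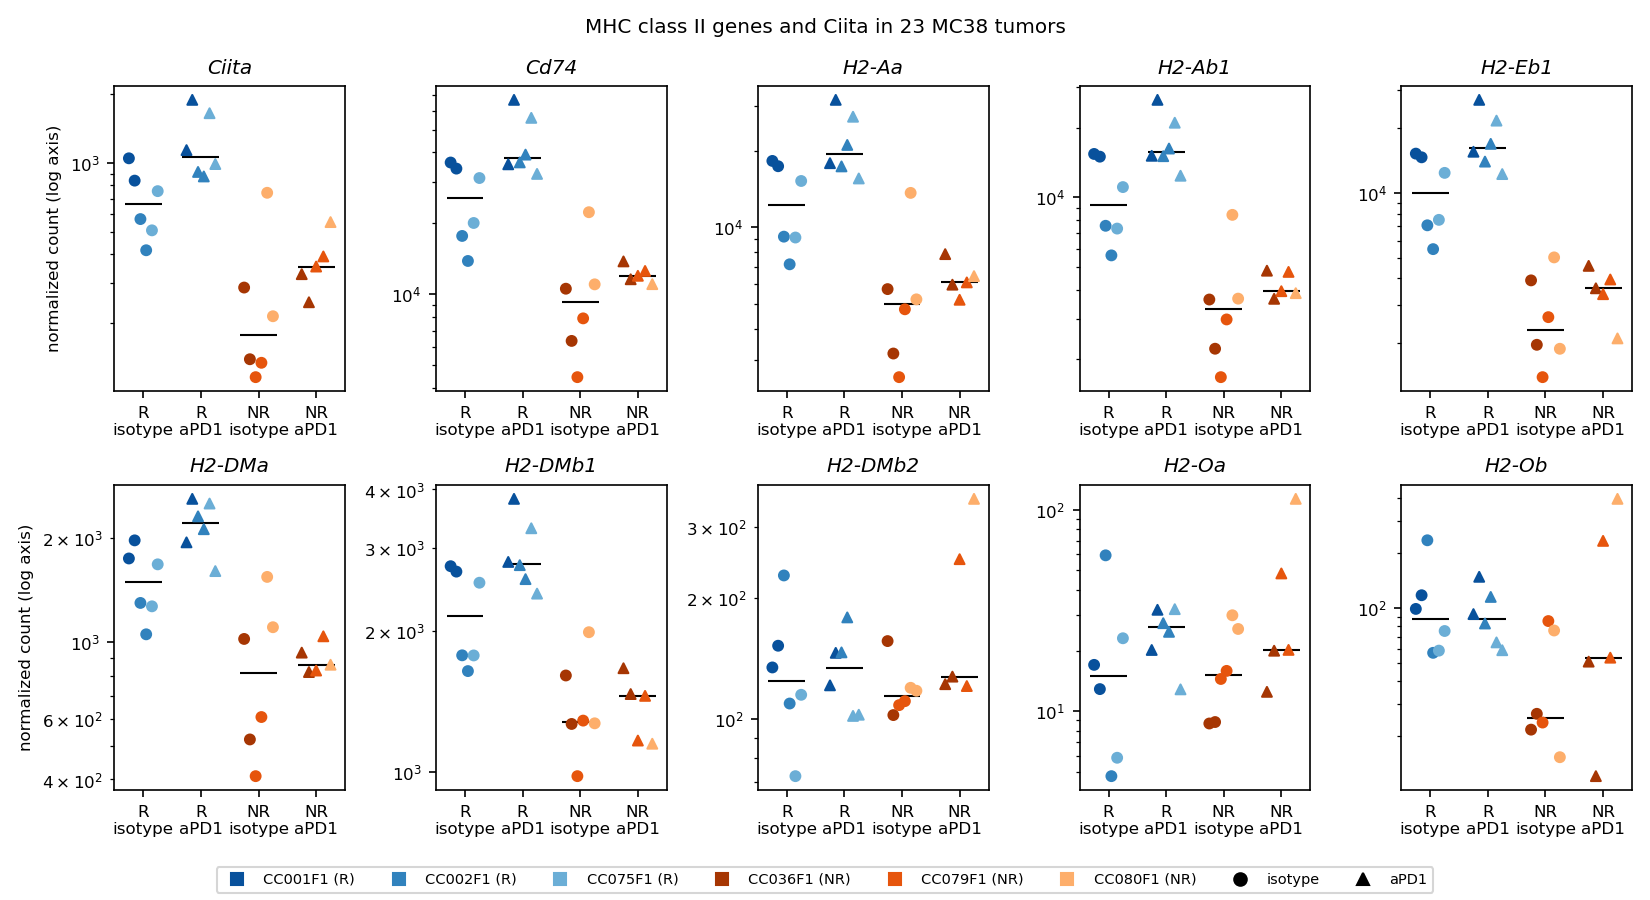
Normalized counts (log axis) of the 10 members in the 23 tumors, by class and antibody. Points are tumors colored by host line, circles with isotype and triangles with aPD1, and bars are group medians. Ciita, Cd74, the classical chains, H2-DMa and H2-DMb1 sat higher in R tumors, and with aPD1 the classes did not overlap for these 7 genes, whereas H2-DMb2, H2-Oa and H2-Ob did overlap and were highest in 3 single tumors.

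Ciita, the transactivator, had normalized counts of 417.2 to 1050 (median 662.9) in R tumors with isotype and of 875.1 to 1888 (median 1066) in R tumors with aPD1. In NR tumors it ran from 116.7 to 742.8 (median 177.4) with isotype, and with aPD1 it was 328.1 and 247.5 in CC036F1, 354.2 and 392 in CC079F1 and 553.4 in CC080F1. With aPD1 the 6 R tumors all lay above the 5 NR tumors. With isotype the classes overlapped through 1 NR tumor, CC080F1 replicate 1 at 742.8, while the other 5 NR tumors lay below every R tumor. The log2 difference over both antibodies was 1.52 ± 0.28 (SE), with a DESeq2 adjusted p of 5.81e-06. Within isotype it was 1.33 ± 0.47 and not called (DESeq2 adjusted p = 0.0681), and within aPD1 it was 1.73 ± 0.23 (DESeq2 adjusted p = 4.32e-11).

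Cd74 (chromosome 18, start 60803848, end 60812652, + strand), which encodes the invariant chain, had normalized counts of 13850 to 36260 (median 25620) in R tumors with isotype and of 32440 to 66910 (median 37740) with aPD1. In NR tumors it ran from 4448 to 22310 (median 9231) with isotype, and with aPD1 it was 13790 and 11580 in CC036F1, 11980 and 12560 in CC079F1 and 11040 in CC080F1. The NR tumors with aPD1 thus lay within a narrow band below all R tumors. The log2 difference was 1.56 ± 0.23 over both antibodies, with a DESeq2 adjusted p of 1.12e-08.

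The classical chains followed the same order. H2-Eb1, the beta chain of the E molecule, had normalized counts of 5471 to 15230 (median 9939) in R tumors with isotype and 12230 to 27100 (median 16220) with aPD1. In NR tumors H2-Eb1 ran from 1387 to 5007 (median 2300) with isotype, and with aPD1 it was 4572 and 3595 in CC036F1, 3375 and 3951 in CC079F1 and 2101 in CC080F1. H2-Eb1 was the 1 member whose 12 R tumors all lay above its 11 NR tumors, a pattern shown by 5 of 12055 genes averaging 100 or more normalized counts (0.0415%), and it was also the 1 member that separated the classes with isotype alone (0.572% of these genes). Its log2 difference of 2.11 ± 0.23 (DESeq2 adjusted p = 4.34e-16) was the largest of the 10 members. The part of host haplotype in this difference was not tested. H2-Ab1 and H2-Aa, the beta and alpha chains of the A molecule, had differences of 1.75 ± 0.24 and 1.44 ± 0.24 (DESeq2 adjusted p = 3.96e-10 and 1.17e-06). For both, 9 of 12 R tumors lay above every NR tumor, and CC080F1 isotype replicate 1 was the highest NR tumor, with a normalized count of 8407 for H2-Ab1 and 13640 for H2-Aa.

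The peptide-exchange genes differed by less. H2-DMa had normalized counts of 1053 to 1970 with isotype and 1605 to 2598 with aPD1 in R tumors, and of 409 to 1544 and 818.7 to 1039 in NR tumors. H2-DMb1 had 1639 to 2744 and 2398 to 3820 in R tumors, and 978.1 to 1984 and 1147 to 1662 in NR tumors. Their log2 differences were 1.03 ± 0.18 for H2-DMa and 0.86 ± 0.12 for H2-DMb1, with DESeq2 adjusted p of 4.34e-06 and 1.68e-09. With aPD1 neither gene overlapped between classes, as for the 5 genes above, against 3.24% of the 12055 genes whose R tumors all lay above the NR tumors with that antibody.

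Within isotype the picture was less firm. Of the 10 members, 5 were called higher in R (Cd74, H2-Ab1, H2-Eb1, H2-DMb1 and H2-Ob), against 2.29% of 14995 genes, and the median difference of the members was 1.2 against 0.00243 for all genes. This count moved with the setting and was 1 (H2-Eb1) in edgeR, which called 0.122% of all genes, and 0 in limma, which called 0.0122%. At an unadjusted p under 0.05 there were 8 members in each of DESeq2, edgeR and limma. Over all genes and in either direction there were 3285 in DESeq2, 3681 in edgeR and 3144 in limma. The last 2 counts were 15% and 12.8% of 24538 genes. Without CC080F1 isotype replicate 1 the count rose to 8, and without CC036F1 isotype replicate 2 it fell to 1. Tumors were shared between the comparison over both antibodies and those within each. Within aPD1, 7 of 10 members were called higher in R in DESeq2, edgeR and limma, against 5.94% of 17156 genes in DESeq2. Their differences ran from 1.09 ± 0.14 (H2-DMb1) to 2.34 ± 0.25 (H2-Eb1), with a median over the 10 members of 1.51 against -0.0125.

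**Figure D2:**
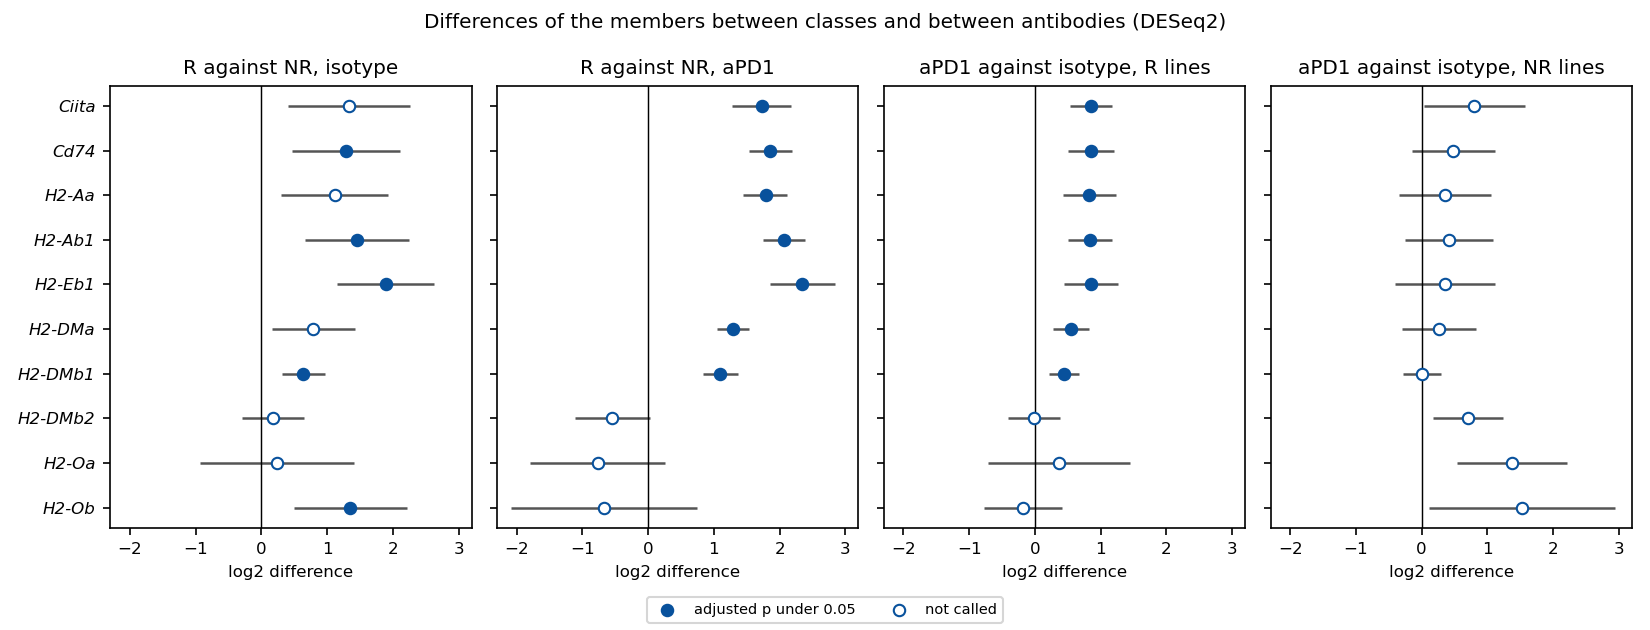
Log2 differences of the 10 members in 4 comparisons from DESeq2, with 95% intervals as lines. Filled points passed an adjusted p of 0.05 and open points did not. The 7 upper genes sat to the right of 0 in the first 3 comparisons, and in the NR lines no member was called.

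With aPD1, the same 7 members were higher than with isotype in responder hosts 48 h after 1 dose in DESeq2, though not in edgeR. In a fit of the R lines that included line, Ciita rose by 0.86 ± 0.17 on the log2 scale (1.81-fold) with aPD1 against isotype, with a DESeq2 adjusted p of 0.00013. Cd74 rose by 0.85 ± 0.18, H2-Aa by 0.83 ± 0.21, H2-Ab1 by 0.84 ± 0.17 and H2-Eb1 by 0.85 ± 0.21. H2-DMa rose by 0.55 ± 0.14 and H2-DMb1 by 0.44 ± 0.12. In DESeq2 these 7 of 10 were called, against 4.85% of 15701 genes called higher, and the median of the members was 0.69 against -0.0124. In edgeR 0 of 24858 genes were called. There the 7 members had differences of 0.44 to 0.85 with adjusted p of 0.0634 to 0.0826 and unadjusted p of 7.33e-05 to 0.00106, and 2621 genes had an unadjusted p under 0.05. Without CC075F1 aPD1 replicate 1, the DESeq2 count fell to 4.

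Tumor by tumor, the difference was not the same in the 3 R lines. In CC001F1, Cd74 was at 36260 and 34170 with isotype and at 35630 and 66910 with aPD1, so that 1 treated tumor stood above and the other lay between the controls. In CC002F1 it was at 17690 and 13850 with isotype and at 36300 and 39180 with aPD1, without overlap. In CC075F1 it was at 20080 and 31160 with isotype and at 56110 and 32440 with aPD1, again without overlap. The per-line log2 difference of Cd74, as the mean of the 2 tumors of each antibody, came to 0.47 for CC001F1, to 1.27 for CC002F1 and to 0.77 for CC075F1. For all 7 genes except Ciita, CC002F1 showed the largest of the 3 R lines, and for Ciita it was CC075F1 (1.04).

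In NR lines no member was called in DESeq2, with 4 of 10 at an unadjusted p under 0.05, against 0.0448% of 24552 genes called and 1316 genes at an unadjusted p under 0.05. In edgeR 0 members were called and 5 had an unadjusted p under 0.05, against 6.0% of genes. Ciita had a difference of 0.80 with a 95% interval of 0.04 to 1.57, and Cd74 one of 0.48 (-0.15 to 1.11). H2-DMb1 had 0.01 (-0.28 to 0.29). The largest differences in NR lines were those of H2-Ob, at 1.52 (0.11 to 2.94), and H2-Oa, at 1.37 (0.54 to 2.21), followed by Ciita and by H2-DMb2 at 0.70 (0.17 to 1.23), and 2 of the 5 NR tumors with aPD1 were rich in the B cell transcripts described below. By line, Cd74 differed by 0.63 in CC036F1, 1.05 in CC079F1 and -0.51 in CC080F1, and the 3 CC080F1 tumors included the high isotype tumor described above. Without that tumor 1 member, Ciita, was called. The difference of the antibody effect between the classes was tested as an interaction. In DESeq2 and in edgeR 0 of 10 members passed, against 0.0342% and 0.0% of 26342 genes. In each, 3 members had an unadjusted p under 0.05, against 6.65% of genes in DESeq2 and 7.33% in edgeR. For H2-DMb1 the interaction was 0.44 (95% interval 0.05 to 0.84, DESeq2 adjusted p = 0.648), for Ciita it was 0.07 (95% interval -0.78 to 0.91) and for H2-Eb1 0.50 (-0.35 to 1.35). It was negative for H2-Ob, at -1.71 (-3.03 to -0.39, unadjusted p = 0.0111 and adjusted p = 0.509 in DESeq2), and for H2-DMb2, at -0.71 (-1.38 to -0.03, unadjusted p = 0.041 and adjusted p = 0.734), so these data do not show whether the classes responded alike.

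Between the 3 R lines, Ciita and H2-Ab1 differed in a DESeq2 likelihood ratio test (adjusted p = 0.0192 and 0.0492), against 1.05% of 19074 genes, and neither was called in edgeR (adjusted p = 0.324 and 0.551). Mean normalized counts of Ciita were 1229 ± 456.9 in CC001F1, 694.6 ± 240.7 in CC002F1 and 976.7 ± 490.7 in CC075F1 (SD, n = 4 each). These calls rested on single tumors, and leaving out 1 tumor gave counts of 0 to 6 members, the 6 being reached without CC001F1 aPD1 replicate 1 and the 0 without any 1 of the other 3 CC001F1 tumors or CC002F1 aPD1 replicate 1. Between the 3 NR lines only H2-Oa differed in DESeq2 (adjusted p = 0.00155), against 9.46% of 16936 genes, and it did not without the 3 tumors rich in B cell transcripts described below (adjusted p = 0.617).

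Ratios of members within a tumor do not depend on depth, and were used because hosts differed in haplotype. They are ratios of counts and were compared between lines, not as levels of one gene against another. H2-Eb1 per H2-Aa count varied less within R lines (SD of the log2 ratio 0.026 to 0.04) than within NR lines (0.09 to 0.147). In R tumors it was 0.836, 0.843, 0.871 and 0.857 in CC001F1, 0.769, 0.765, 0.807 and 0.803 in CC002F1, and 0.822, 0.816, 0.799 and 0.787 in CC075F1 (isotype replicates, then aPD1 replicates). In NR tumors it was 0.685, 0.615, 0.583 and 0.604 in CC036F1, 0.538, 0.554, 0.65 and 0.651 in CC079F1, and 0.367, 0.361 and 0.327 in CC080F1. All 12 R tumors thus lay above all 11 NR tumors, and CC080F1 lay below every other line. The aPD1 tumors lay above the isotype tumors of their line in CC001F1, CC002F1 and CC079F1 and below them in the other 3 lines. In a permutation test of line within antibody the adjusted p was 0.00021, over 42 ratio tests, its unadjusted value of 1e-05 being the smallest that 100000 resamples can give. The high isotype tumor of CC080F1, with 5007 for H2-Eb1 and 13640 for H2-Aa, kept the ratio of its line (0.367).

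H2-Ab1 per H2-Aa also differed between lines (permutation test, adjusted p = 0.00157), with geometric means of 0.847, 0.811 and 0.776 in CC001F1, CC002F1 and CC075F1 and of 0.639, 0.701 and 0.638 in CC036F1, CC079F1 and CC080F1. The classes overlapped here, from 0.729 to 0.869 in R tumors and from 0.601 to 0.785 in NR tumors. Cd74 per H2-Aa, by contrast, ran from 1.86 to 2.20 in R and from 1.64 to 2.31 in NR tumors and did not differ between lines (permutation test, adjusted p = 0.539). H2-Aa per Ciita did not pass either (adjusted p = 0.645, permutation test), with 15.7 to 24 in R and 11.6 to 35.1 in NR tumors. Of the 14 ratios, 9 differed between lines, and for the antibody 0 of 14 differed in R lines and 0 of 14 in NR lines by exact permutation within line, with 3 in R lines and 0 in NR lines at an unadjusted p under 0.05. In R lines the difference of H2-Eb1 per H2-Aa with aPD1 was 0.02 on the log2 scale. Reads were mapped by the authors to transcriptomes of the founder strains. How far a ratio between chains, or the level of a chain, depends on haplotype-specific mapping was not tested.

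**Figure D3:**
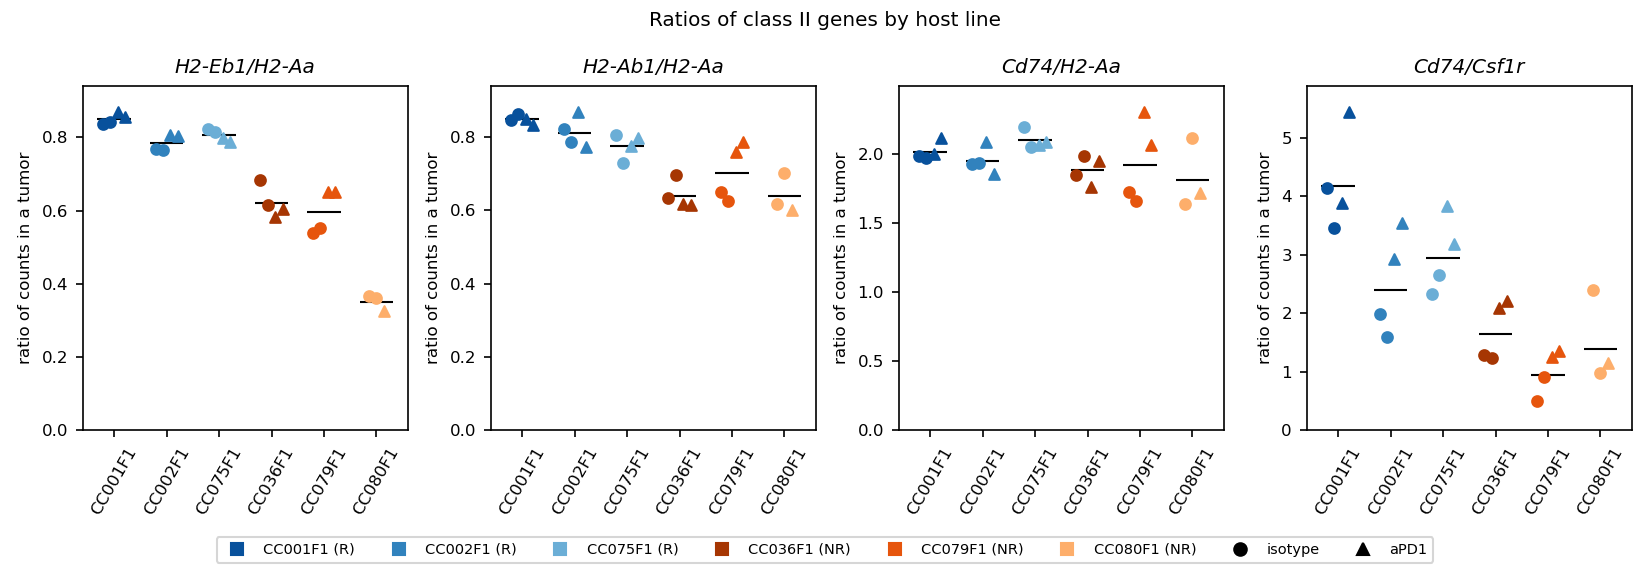
Ratios of counts within each tumor by host line, on linear axes from 0. Circles are isotype and triangles aPD1 tumors, and bars are geometric means of 3 or 4 tumors. H2-Eb1 per H2-Aa was 0.852 in CC001F1 and 0.351 in CC080F1 and separated the classes, whereas Cd74 per H2-Aa overlapped between the classes.

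The E molecule also needs an alpha chain, and the C57BL/6J allele of its gene is a pseudogene, annotated as H2-Ea-ps, which a deletion has silenced. H2-Ea-ps was listed at 0 counts in all 16 tumors of CC001F1, CC002F1, CC075F1 and CC036F1. A count of 0 allows up to 3 counts, or 1.58 to 7.7 normalized counts over all libraries. In CC079F1 it had normalized counts of 331.6 and 541.2 with isotype and of 864.3 and 1053 with aPD1. In CC080F1 it had 3517 and 1265 with isotype and 1710 with aPD1. Transcripts were therefore detected in every tumor of 2 NR lines and in none of the other 4 lines, among them the NR line CC036F1. Relative to H2-Eb1, the counts of H2-Ea-ps were 0.205 to 0.266 in CC079F1 and 0.673 to 0.814 in CC080F1, a comparison chosen after the values were seen.

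**Figure D4:**
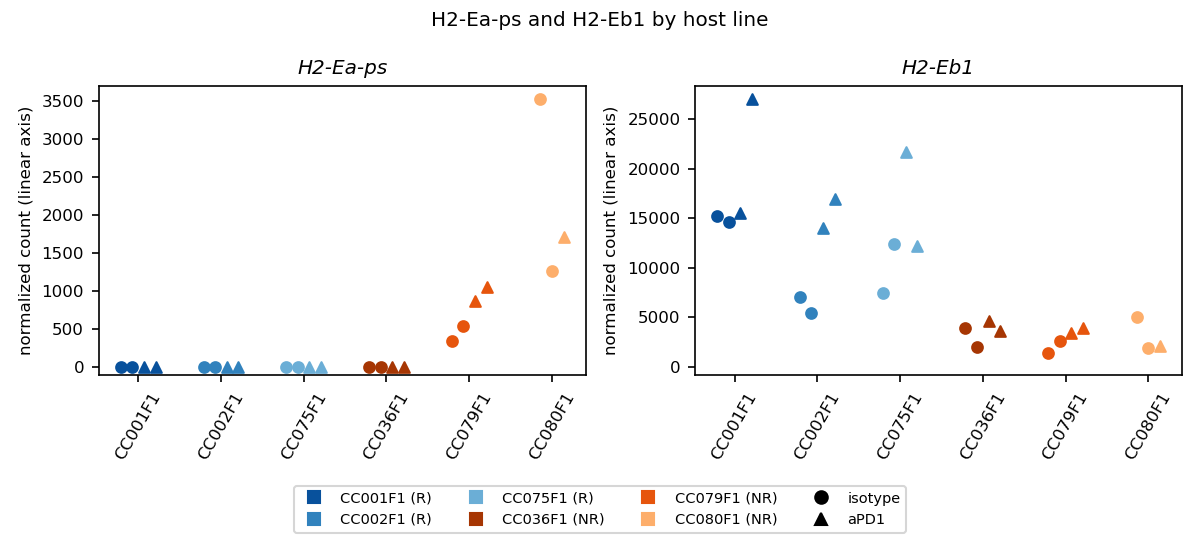
Normalized counts (linear axes) of H2-Ea-ps and H2-Eb1 in each tumor by host line, circles with isotype and triangles with aPD1. H2-Ea-ps was at 0 in 4 lines and at 331.6 to 3517 in CC079F1 and CC080F1, while H2-Eb1 was present in all 6 lines and lower in the 3 NR lines.

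H2-DMb2, H2-Oa and H2-Ob behaved apart from the other members. Across the 23 tumors, the correlation of each member with the mean of the other 9, on the log2 scale, was 0.865 to 0.958 for the 7 genes above, and 0.19 for H2-DMb2, 0.291 for H2-Oa and 0.528 for H2-Ob, given as a description. H2-Ob, the beta chain of H2-O, had normalized counts of 57.15 to 235.7 (median 87.28) in R tumors with isotype and of 59.05 to 148.8 (median 87.86) with aPD1. In NR tumors it ran from 15.36 to 85.25 (median 25.14) with isotype, and with aPD1 it was 51.15 and 12.10 in CC036F1, 233.9 and 53.76 in CC079F1 and 397 in CC080F1. The highest values belonged to 3 tumors, an aPD1 tumor of CC080F1 (replicate 1), an isotype tumor of CC002F1 (replicate 1) and an aPD1 tumor of CC079F1 (replicate 1), which were also the highest for H2-Oa (113.3, 59.42 and 48.30) and for H2-DMb2 (353, 227.8 and 250).

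The same 3 tumors had the highest sums of 5 B cell markers, Cd79a and Ms4a1 among them, at 3507, 1168 and 897.4 normalized counts, against 70.24 to 281.4 in the other 20. They also had the highest sums of the lymph node genes Glycam1 and Ccl21a (623.6, 615 and 472.8, against 0 to 8.175). H2-DMa in these tumors was 859.6, 1298 and 827, inside the range of the other tumors of their class. In NR tumors summed B cell markers correlated with H2-Ob (Pearson r = 0.712, permutation adjusted p = 0.0248, Spearman rho = 0.245, permutation adjusted p = 0.623, n = 11), but r was -0.222 without the 2 tumors farthest from the median, so the relation rested on those. In R tumors r was 0.566 (permutation adjusted p = 0.0902, rho = 0.217, adjusted p = 0.623, n = 12). The part of the B cell and lymph node genes in the values of H2-DMb2, H2-Oa and H2-Ob was not tested.

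Without these 3 tumors the log2 difference of H2-Ob between R and NR was 1.10 over both antibodies, 1.31 within aPD1 and 0.95 within isotype, against 0.37 ± 0.48, -0.67 ± 0.72 and 1.35 ± 0.44 with all tumors. Both former values passed the DESeq2 test without the 3 tumors only (adjusted p = 0.00909 and 0.0447), and the isotype value passed it with all tumors only (adjusted p = 0.0413, and 0.215 without them). The 3 tumors were the highest for H2-Ob itself and included 2 of the 5 NR tumors with aPD1, so leaving them out by itself moves the difference over both antibodies and within aPD1 toward R, and no direction is read from it. H2-DMb2 and H2-Oa were not called with or without them. H2-DMb2 differed by -0.17 (95% interval -0.57 to 0.22) between R and NR with all tumors.

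**Figure D5:**
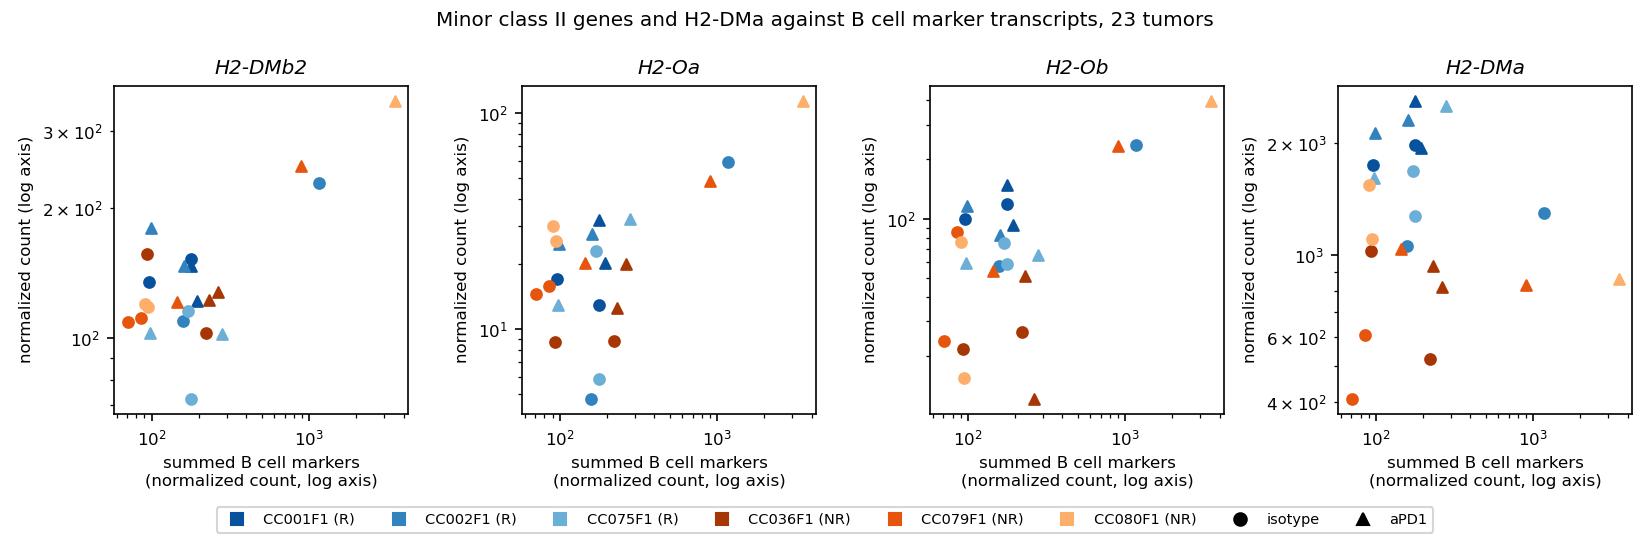
Normalized counts of H2-DMb2, H2-Oa, H2-Ob and H2-DMa against the sum of 5 B cell markers in the 23 tumors, both on log axes, colored by host line. The 3 tumors with marker sums of 897.4 to 3507 were the highest for the first 3 genes and not for H2-DMa.

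Upstream of Ciita, 4 of 8 genes of the interferon-gamma route were called higher in R over all tumors, against 7.66% of all genes. Ifng, Irf1 and Socs1 were among them. Within isotype 1 of the 8, Ifng, was called higher, against 2.29% of genes. Ifng, the cytokine itself, had normalized counts of 29.53 to 94.44 (median 47.88) in R tumors with isotype and 50.01 to 289 (median 147.3) with aPD1, against 14.46 to 43.02 (median 21.91) and 8.474 to 51.15 (median 15.92) in NR tumors. Its log2 difference between classes was 1.89 ± 0.33 (DESeq2 adjusted p = 1.75e-06), and in R lines it rose by 1.5 ± 0.37 with aPD1 (DESeq2 adjusted p = 0.00365). Irf1, a transcription factor that acts at the Ciita promoter, differed by 0.31 ± 0.08 (DESeq2 adjusted p = 0.00318), and was not called over the 17 deep libraries alone (DESeq2 adjusted p = 0.0948) or without CC079F1. The receptor chain Ifngr1 (0.04 ± 0.08) and the kinase Jak2 (0.02 ± 0.04) were not called.

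Within R tumors, Ifng correlated with Ciita (Pearson r = 0.801, permutation adjusted p = 0.00334, Spearman rho = 0.741, permutation adjusted p = 0.0155, n = 12, r = 0.649 without the 2 farthest tumors). Within NR tumors r was 0.185 (permutation adjusted p = 0.579, rho = 0.109, adjusted p = 0.837, n = 11), and the difference between the classes was not tested. Ciita correlated with H2-Aa in both classes, with r = 0.957 (rho = 0.881) in R and r = 0.868 (rho = 0.845) in NR tumors, and with Cd74, with r = 0.963 (rho = 0.853) and r = 0.88 (rho = 0.836). All 4 had a permutation adjusted p of at most 0.000825 for r and of at most 0.00532 for rho, and r was 0.722 to 0.924 without the 2 farthest tumors. These values were on the log2(normalized count + 1) scale, and 10 relations were computed. The tumors of a class shared 3 lines and 2 antibodies, and the permutations treated them as exchangeable, so these p-values take no account of line or antibody, and in R lines both Ifng and Ciita were higher with aPD1.

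Of the 7 enhanceosome genes through which Ciita acts (Rfx5, Rfxap, Rfxank, Nfya, Nfyb, Nfyc and Creb1), none was called over all tumors, and their median difference was 0.03. In the isotype tumors 1 of them, Rfx5, was called lower in R (-0.31 ± 0.10, DESeq2 adjusted p = 0.029), against 3.24% of all genes tested with that antibody, with normalized counts of 1042 to 1456 in R and 1170 to 1513 in NR tumors that overlapped. The endosomal processing genes had 4 of 7 members higher in R over all tumors (Ctss, Ctsb, Lgmn and Ifi30), against 7.66% of all genes, and 0 of 7 called within isotype. Ctss, the cathepsin that trims the invariant chain, differed by 0.71 ± 0.16 (DESeq2 adjusted p = 0.000195, and 0.0501 without CC036F1) and rose by 0.64 ± 0.15 in R lines with aPD1 (DESeq2 adjusted p = 0.00317). Of the ubiquitin ligases that turn class II over, March1 was higher in R by 0.83 ± 0.14 (DESeq2 adjusted p = 2.12e-06) and March8 was not called (-0.04 ± 0.04). In the neighboring class II region the class I loading genes Tap1 (0.54 ± 0.11), Tap2 (0.21 ± 0.06), Psmb8 (0.18 ± 0.05) and Psmb9 (0.29 ± 0.09) were called higher over all tumors, and H2-Eb2 and Brd2 were not called. Within isotype none of these loading genes was called.

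Markers of some of the cells that carry class II were higher in R over all tumors, namely those of macrophages and cDC1, and markers of B cells, cDC2 and pDC were not. Ptprc, the pan-leukocyte gene, ran from 5371 to 6302 normalized counts in R and 2447 to 6278 in NR tumors with isotype, and from 5651 to 13890 and 3099 to 5976 with aPD1 (log2 difference 0.77 ± 0.16 over all tumors). The sum of 6 macrophage markers ran from 94570 to 160000 in R and 59790 to 90090 in NR tumors with aPD1. With isotype it ran from 57250 to 114100 and from 47230 to 103500. Over all tumors 4 of the 6 were called higher in R (Adgre1, Csf1r, Cd68 and C1qa), against 7.66% of all genes. The sum of 4 cDC1 markers ran from 2460 to 5124 and 1524 to 2384 with aPD1, and from 2140 to 2788 and 1407 to 2641 with isotype, where the classes overlapped. In DESeq2 3 of 4 cDC1 and 3 of 4 T cell markers were called higher in R over all tumors, against 7.66% of all genes. Within isotype 0 of 6 macrophage, 0 of 4 cDC1 and 0 of 4 T cell markers were called, whereas Ptprc was called higher in R, against 2.29% of genes. Their median log2 differences within isotype were 0.17 for macrophage, 0.57 for cDC1 and 1.4 for T cell markers, and Ptprc differed by 0.53. None of the cDC2 (4), pDC (3), fibroblast (3), tumor cell (4), B cell (5) and skeletal muscle (3) markers was called over all tumors, nor were the 2 lymph node genes found. With aPD1 alone, 4 of 5 B cell markers were called lower in R, against 1.99% of all genes tested. The 3 skeletal muscle genes were called higher there, against 5.94% of all genes tested, and summed to 12.84 to 8258 in R and 9.321 to 190.4 in NR tumors.

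Cd74 and Ciita also differed between lines relative to macrophage and leukocyte transcripts. Each p-value here is for a difference among all lines together. A difference of these ratios between R and NR was not tested, and the ranges of the classes overlapped for each ratio. Cd74 per Csf1r ran from 1.59 to 5.45 in R tumors (median 3.32) and from 0.506 to 2.40 in NR tumors (median 1.26), and differed between lines (permutation test, adjusted p = 0.00028). Cd74 per Ptprc ran from 2.58 to 6.30 and from 1.12 to 3.74 (permutation test between lines, adjusted p = 0.00462, and 0.0868 over the deep libraries alone). Ciita per Ptprc ran from 0.0778 to 0.202 and from 0.0295 to 0.118 (permutation test, adjusted p = 0.00202). In bulk tumors, fewer cells of a type and less RNA per cell cannot be told apart, and the part of the marker genes in these results was not tested.

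Among the genes outside the members whose profile over the 23 tumors was most like the mean of the 10 were Dnase1l3 (r = 0.924), Il2rg (0.915), Selplg (0.912) and H2-T23 (0.909), of 12047 genes ranked. With class and antibody means removed, these correlations were 0.773, 0.765, 0.801 and 0.771. All points share library and host line, and the values are a description.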

How the data were processed

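RNA of 23 tumors was sequenced by the authors as poly(A) libraries, aligned with Bowtie 1.2.3 to transcriptomes of the CC founder strains (GRCm38/mm10) and quantified with gbrs, and the authors deposited expected counts per gene, of which 16.95% were not whole. They were rounded here. Identifiers were named with GENCODE vM21, which matched 26681 of 26869, and 0 sample columns were left unused. The labels name the tumors as biological replicates, and replicates differed by more than sampling noise.

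Genes with at least 5 summed counts were fitted with DESeq2 1.42.0 (R 4.3.3) with default options, as in the study, and called at a Benjamini-Hochberg adjusted p under 0.05. Fits covered R against NR with antibody as a term, R against NR within each antibody, aPD1 against isotype with line as a term, their interaction and likelihood ratio tests of line. edgeR 4.0.16 (quasi-likelihood, TMM) and limma 3.58.1 (voom, line as random effect) were alternatives. On simulated counts with 26342 genes, 98 of 100 genes changed 2-fold were recovered for R against NR. The simulated tumors had no differences between lines of a class, and only genes averaging at least 100 counts were changed. Recovery with line nested in class, or for rarer genes, was therefore not measured. Ratios had a pseudocount of 0.5, and 42 permutation tests were adjusted together.

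Text names all 10 members, 14 ratios, genes of the pathway lists and genes from the 5 most similar profiles. Some genes that these rules select are not reported here. Marker lists were used beside them, Fdcsp of the lymph node list being not found. Members and lists were chosen with earlier results of these data known. Deviations of same-numbered replicates had correlations of -0.404 to 0.368 over 55 pairs of groups, 14 of them above 0.1. They were not alike in all groups, so numbers were not taken as pairs in the main fits. A shared deviation in part of the groups is not excluded by these values.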

Additional observations from a re-analysis of the deposited data

Results flagged for a closer look

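In 8 of 110 groups of 4 to 6 values examined, 1 tumor stood apart from the others by Dixon's criterion, which chance meets in about 1 of 20 groups. Among the NR isotype tumors, CC080F1 isotype replicate 1 was high for Ciita (742.8 normalized counts), Cd74 (22310), H2-Aa (13640) and H2-Ab1 (8407). In the same group CC036F1 isotype replicate 1 was high for H2-DMb2 (156.5). Among the R isotype tumors, CC002F1 isotype replicate 1 was high for H2-Oa (59.42) and H2-Ob (235.7). Within CC036F1, isotype replicate 2 was low for the log2 ratio of Ciita to Ptprc (-4.127).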

How the results depend on the processing

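The 7 members higher in R over all tumors and within aPD1 numbered 7 or 8 under every alternative run. The 5 called within isotype became 1 in edgeR, 0 in limma, 0 over deep libraries, 2 without the 3 tumors rich in B cell transcripts, 1 without each of CC001F1, CC036F1 and CC079F1, 3 without CC075F1 and 8 without CC080F1. They ran from 1 to 8 with 1 tumor left out. The 7 raised by aPD1 in R lines became 0 in edgeR, and 4 to 7 with 1 tumor left out. In NR lines the count was 0 to 1. Of the line differences, the 2 in R lines became 0 in edgeR and 1 with TMM size factors, over deep libraries or without the 3 tumors (0 to 6 leaving out 1 tumor), and the 1 in NR lines became 2 in edgeR or over deep libraries and 0 without the 3 tumors (1 to 2). With the replicate number as a block, the count was 7 over all tumors, 6 within isotype, 7 within aPD1, 7 for aPD1 in R lines, 1 for R line differences and 2 for NR line differences. Ratios called for the antibody in R lines numbered 0 to 1 leaving out 1 tumor. The cause was not tested.

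Log2 differences that changed sign were mostly those of H2-DMb2, H2-Oa and H2-Ob. Without the 3 tumors, H2-DMb2 was 0.03 over all tumors, -0.04 within isotype, 0.12 within aPD1, 0.15 for aPD1 in R lines and 0.12 for the interaction. H2-Oa was then -0.45 within isotype, 0.57 within aPD1 and 0.38 for the interaction, H2-Ob 1.31 within aPD1 and 0.22 for aPD1 in R lines, and Ciita -0.01 for the interaction. The correlation of B cell markers with H2-Ob, R tumors, became -0.122, that of B cell markers with Ciita, R tumors, 0.196 and that of B cell markers with H2-Ob, NR tumors, -0.222. In limma H2-Oa was -0.25 within isotype and H2-Ob 0.36 within aPD1. Without single lines, over all tumors, H2-DMb2 was 0.01 (CC075F1), H2-Oa 0.35 (CC080F1) and H2-Ob -0.12 (CC036F1). Within isotype H2-DMb2 was -0.02 and H2-Oa -0.24 (CC002F1), H2-Oa -0.07 (CC036F1), and within aPD1 H2-Ob was 0.10 (CC080F1). Over deep libraries H2-DMb1 was -0.04 for aPD1 in NR lines. Leaving out 1 tumor, H2-Oa ran from -0.62 to 0.13 over all tumors and -0.45 to 0.51 within isotype, H2-DMb2 from -0.04 to 0.31 within isotype and -0.13 to 0.15 for aPD1 in R lines, H2-Ob from -0.97 to 0.10 within aPD1 and -0.34 to 0.22 for aPD1 in R lines, H2-DMb1 from -0.08 to 0.17 in NR lines and Ciita from -0.21 to 0.23 for the interaction. H2-Oa and H2-Ob rested on as few as 4 and 6 counts in a library.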
